A study of Homo sapiens with 6 samples.

Results

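The SLC25 family is the set of carrier proteins that move metabolites across the inner mitochondrial membrane, which is closed to most charged molecules. A typical carrier is a small, nuclear-encoded protein that spans the membrane and exchanges a substrate on the matrix side for another on the cytosolic side. Through these proteins ADP, phosphate and oxidisable acids enter the matrix, ATP leaves it, and cofactors made in the cytosol, S-adenosylmethionine (SAM) among them, reach the matrix enzymes that use them. The members were chosen by gene name alone, as every row of the deposited count table whose symbol is SLC25A followed by a number. Carriers of the family listed under another symbol, such as UCP2, were left out by this rule. The choice gave 48 rows with 47 symbols among 57396 genes, since SLC25A10 stands under 2 Ensembl identifiers.

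The RNA came from PC-3, an established human prostate carcinoma cell line. The SAM group received 160 µM S-adenosylmethionine, the methyl donor of most cellular methylation reactions, and the control group received PBS, each for 5 days. Each group had 3 libraries, numbered 1 to 3 in the labels. Nothing in the labels says that the libraries of a group came from separate cultures, so the spread behind each p-value is that among libraries and may be technical only.

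Library totals were between 12020601 and 28995160 counts for SAM and between 9379258 and 21768273 for control. SAM 2 and control 1, the shallowest libraries of their groups, also stood apart in composition, with 1.56% and 1.18% of their counts on the gene CTD-2328D6.1, against 0.0324 to 0.0636% in the other 4. The epithelial keratin and adhesion markers expected of PC-3 summed to 2851 to 3595 CPM, the count scaled to a common library size, in SAM libraries and 3331 to 3474 CPM in control libraries. The luminal markers KLK2 and KLK3 were at 0 in every library, and the 5 luminal markers summed to 12.02 to 13.99 CPM in SAM libraries and 12.12 to 12.34 CPM in control libraries. Markers of other cell types summed to 18.2 to 18.9 CPM in SAM libraries and 17.7 to 20.2 CPM in control libraries, with DCN and HBB at 0. COL1A1 held most of this sum, with 16.6 to 16.9 CPM in SAM libraries and 16.75 to 18.75 CPM in control libraries. Of these markers, edgeR called CDH1 lower (267 ± 31.7 CPM with SAM, 365 ± 22.3 CPM in control, adjusted p = 0.0298), TMPRSS2 lower (3.30 ± 0.577 CPM with SAM, 5.13 ± 0.391 CPM in control, adjusted p = 0.0493) and CD68 higher (1.21 ± 0.333 CPM with SAM, 0.438 ± 0.148 CPM in control, adjusted p = 0.0439; SD, n = 3 each), and their part in the members' values was not tested. Because the RNA was bulk, fewer cells that make a transcript and less of it per cell cannot be told apart.

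Of the 48 rows, 40 held enough counts to be tested with edgeR's quasi-likelihood test, which was fitted to 15312 genes and adjusted over all of them. SAM-treated cells had more RNA of 5 carriers, among them SLC25A4, an ADP/ATP carrier, SLC25A12, an aspartate/glutamate carrier, SLC25A22, a glutamate carrier, and SLC25A17, a carrier of the peroxisome. The increases were between 1.26-fold and 1.68-fold. These 5 were 12.5% of the tested members, and 5.19% of all tested genes were called higher (10.4% in either direction). No member was called lower, where 5.24% of all tested genes were. At an unadjusted p under 0.05 no member was lower either, beside 15.2% of all tested genes. DESeq2, limma voom and limma on the deposited normalised values each called 4 members higher and 0 lower. For DESeq2 this was 10.3% of the members, beside 7.47% of all genes. For limma voom and limma it was 10% of the members, beside 5.17% and 5.03% of all genes. The mitochondrial SAM carrier itself, SLC25A26, did not pass the test.

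SLC25A4 (ENSG00000151729, chr4:185143241-185150382 on GRCh38) encodes ANT1, the ADP/ATP carrier that is abundant in heart and skeletal muscle. It had 65.0, 49.9 and 60.9 CPM in SAM libraries 1 to 3, against 33.4, 37.9 and 33.3 CPM in control libraries 1 to 3. All SAM libraries were above all control libraries, and SAM 2 was the lowest of the 3 SAM libraries. The means were 58.6 ± 7.79 CPM with SAM and 34.8 ± 2.64 CPM in control (SD, n = 3 each), with a log2 fold change of 0.75 (SE 0.11, edgeR adjusted p = 0.00700). The call was lost without control 3 (adjusted p = 0.0646), where 0.399% of all tested genes were called higher. SLC25A4, SLC25A5 and SLC25A6 have closely similar coding sequences, and SLC25A5 has many processed pseudogenes, so the split of reads among these genes is uncertain.

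SLC25A12 (ENSG00000115840, chr2:171784370-171999859) encodes aralar, a calcium-regulated aspartate/glutamate carrier of the malate-aspartate shuttle, which brings the reducing equivalents of cytosolic NADH into the matrix. Its level was 42.8, 34.7 and 37.7 CPM in SAM libraries, against 23.8, 25.2 and 25.0 CPM in control libraries. The control libraries lay close together, and every SAM library was above them. The means were 38.4 ± 4.12 CPM with SAM and 24.7 ± 0.728 CPM in control (SD, n = 3 each), a log2 fold change of 0.64 (SE 0.10, edgeR adjusted p = 0.00802). Its annotated span overlaps that of HAT1 on the opposite strand over 61239 bases, and the sources used here do not say if reads were counted by strand.

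SLC25A22 (ENSG00000177542, chr11:790475-798333) encodes a carrier that takes glutamate into the matrix together with a proton. It reached 63.9, 61.1 and 71.8 CPM in SAM libraries, against 43.9, 43.3 and 46.7 CPM in control libraries. The 2 groups did not overlap. In GENCODE release 44 its span shares 771 bases with PANO1 on the opposite strand. The means were 65.6 ± 5.58 CPM with SAM and 44.6 ± 1.84 CPM in control (SD, n = 3 each), and the log2 fold change was 0.56 (SE 0.09, edgeR adjusted p = 0.00971). Leaving out control 1, 2 or 3 ended the calls of both SLC25A12 and SLC25A22, whose adjusted p then reached up to 0.0674 and 0.0712. In these 3 settings 0.718, 0.704 and 0.399% of all tested genes were called higher.

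SLC25A17 (ENSG00000100372, chr22:40769630-40819399) differs from the other members in that its product sits in the peroxisomal membrane, where it carries coenzyme A and other nucleotide cofactors. It had 30.4, 29.0 and 28.5 CPM in SAM libraries, against 22.2, 24.4 and 22.9 CPM in control libraries. The groups were apart, with a smaller gap than for SLC25A4, SLC25A12 and SLC25A22. The means were 29.3 ± 0.985 CPM with SAM and 23.2 ± 1.14 CPM in control (SD, n = 3 each), a log2 fold change of 0.34 (SE 0.09, edgeR adjusted p = 0.0448). This call was lost under 12 of the 19 alternatives, DESeq2 and limma voom included, with an adjusted p of up to 0.209.

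**Figure D1:**
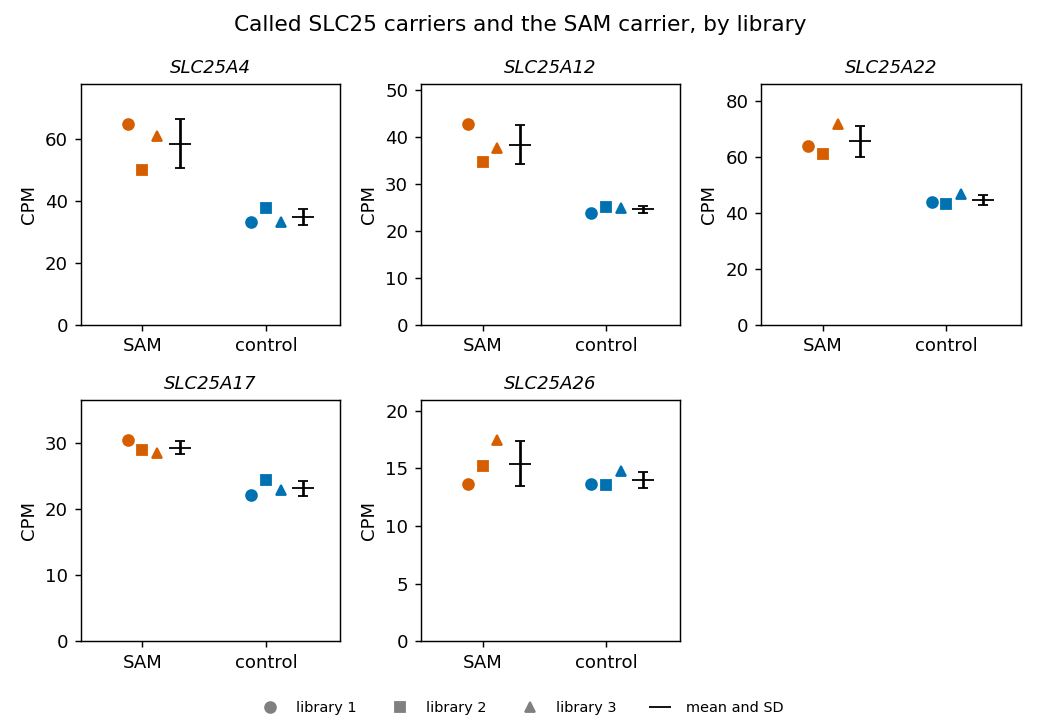
Level of 4 carriers that were called higher with SAM and of the SAM carrier SLC25A26, in CPM, with SAM libraries on the left and control libraries on the right of each panel (points, by library number; horizontal line and bar, mean and SD, n = 3). In these 4 carriers every SAM library lies above every control library, as in 17.9% of all tested genes. For SLC25A26, SAM 1 (13.6 CPM) lies within the control range.

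SLC25A26 (ENSG00000144741, chr3:66133610-66388116) encodes the carrier that brings SAM into the matrix in exchange for S-adenosylhomocysteine, and it is the member whose substrate was added to the medium. Its level was 13.6, 15.2 and 17.4 CPM in SAM libraries, against 13.6, 13.5 and 14.8 CPM in control libraries. SAM 1 lay inside the control range. The means were 15.4 ± 1.92 CPM with SAM and 14.0 ± 0.701 CPM in control (SD, n = 3 each), with a log2 fold change of 0.13 (SE 0.13, edgeR adjusted p = 0.498). The 95% interval of this log2 fold change, between -0.15 and 0.42, leaves room for a small decrease as well as for an increase. SLC25A26 was not called under any of the 19 alternatives, with log2 fold changes between 0.03 and 0.22. Part of its span (9320 bases) is shared with LRIG1 on the opposite strand.

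Among the tested members, 27 had a positive and 13 a negative log2 fold change, and 67.5% positive compares with 49.1% of all tested genes. The median log2 fold change of the members was 0.13, between -0.25 and 0.75, beside -0.01 over all tested genes. Taking each SAM library by itself against the control mean, the members' median difference in log2 CPM was 0.19 for SAM 1, 0.12 for SAM 2 and 0.20 for SAM 3. The share of all counts held by the members was 0.360, 0.347 and 0.406% in SAM libraries, against 0.332, 0.348 and 0.347% in control libraries. SAM 2 lay inside the control range of this share and SAM 3 was highest. SAM 3 also differed from the other libraries in how its counts followed GC content and transcript length. Its GC slope was 0.129 log2 units per 10 percentage points, against -0.066 to 0.008 in the others, and its length slope was -0.152 log2 units per doubling, against -0.064 to 0.085. With the trends on length and GC removed together from every library, 10 members (25%) and 11.8% of all genes were called higher, and the part of each trend by itself was not tested.

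**Figure D2:**
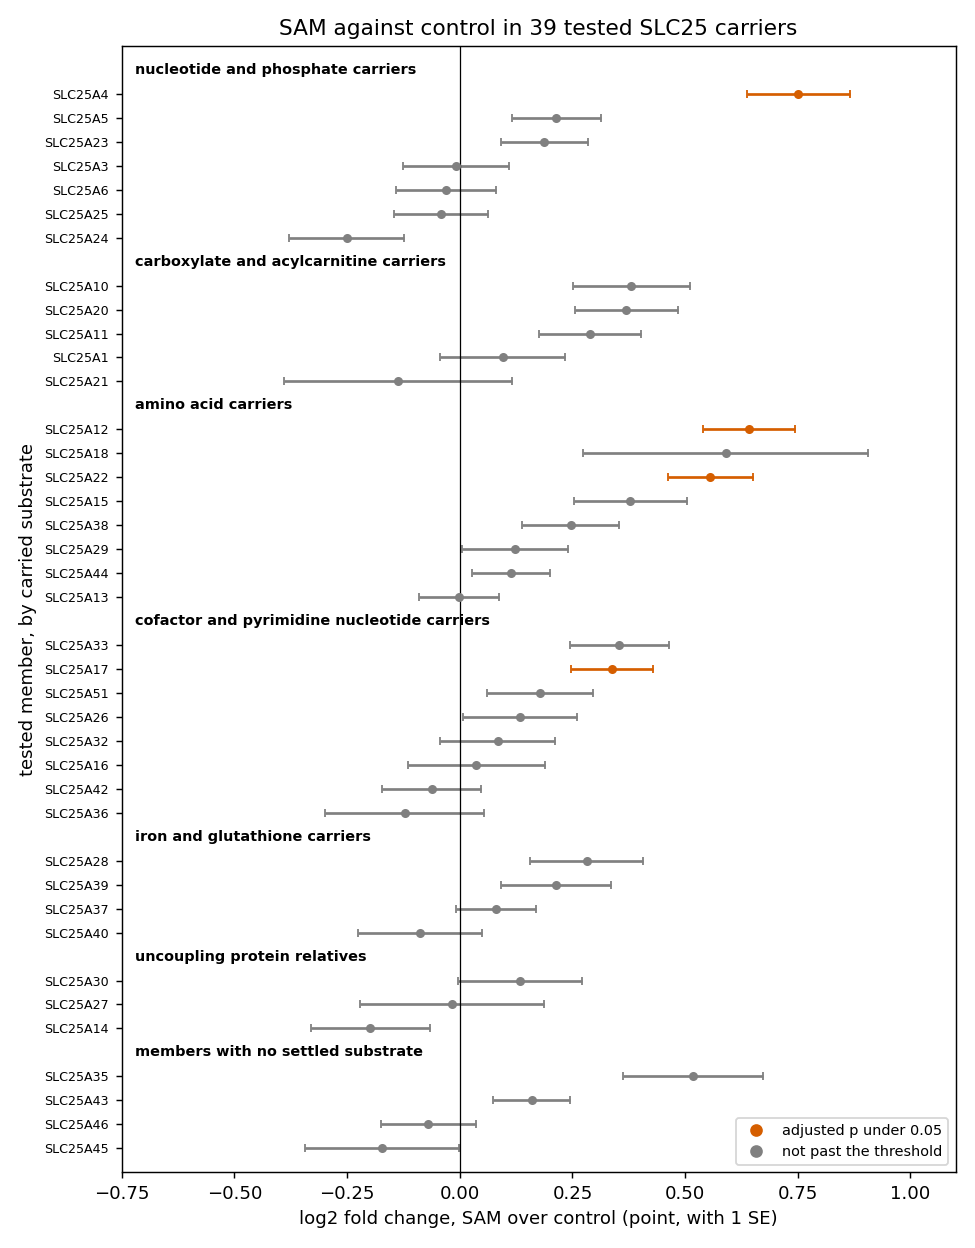
Log2 fold change of SAM over control for 39 tested members, grouped by what they carry (points; bars, 1 SE; orange, edgeR adjusted p under 0.05). The 4 called members drawn lie between 0.34 and 0.75, and the lowest value is that of SLC25A24 at -0.25.

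In 18 of the 40 tested members all SAM libraries were above all control libraries, which held for 17.9% of all tested genes. In 1 member, SLC25A24, all SAM libraries were below all control libraries, where 18.8% of all tested genes were, and in 21 members the groups overlapped. SLC25A24, a calcium-regulated ATP-Mg/phosphate carrier, had 65.6, 67.8 and 48.5 CPM in SAM libraries, against 69.6, 74.7 and 72.1 CPM in control libraries. The gap was set mainly by SAM 3, and the log2 fold change of -0.25 (SE 0.13) did not pass the test (edgeR adjusted p = 0.209). SLC25A24 was chosen for description after its values were seen.

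**Figure D3:**
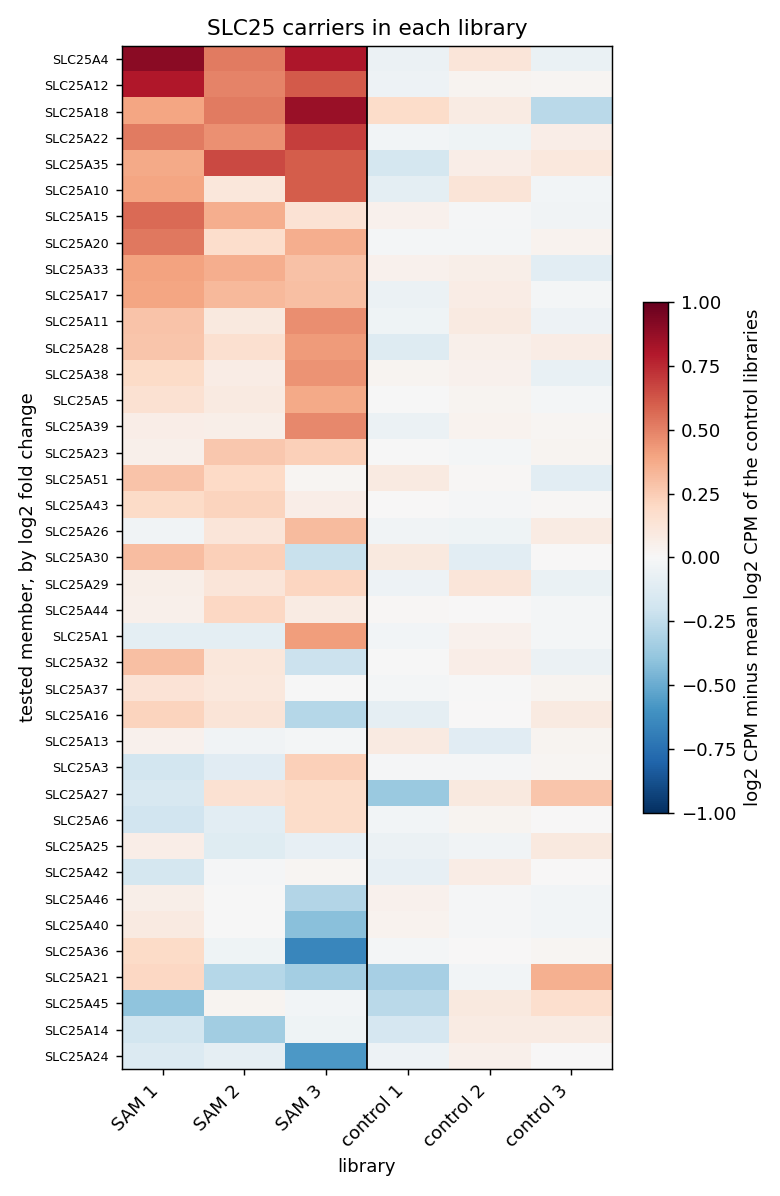
Log2 CPM of 39 tested members in each library minus the member's mean over the control libraries (colour scale from -1 to 1; SAM libraries left of the line, control libraries right of it; members ordered by log2 fold change). The top rows are red in all 3 SAM libraries, whereas several lower rows, SLC25A24 and SLC25A36 among them, are blue mainly in SAM 3.

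Amino acid carriers held 2 of the 5 calls. Of 9 members, 8 were tested, 7 were positive, and their median log2 fold change was 0.31. For this and each later substrate group, the shares over all tested genes were 5.19% called higher and 49.1% positive. Besides SLC25A12 and SLC25A22, SLC25A15, the ornithine carrier of the urea cycle, had 23.4, 20.3 and 17.5 CPM in SAM libraries, against 16.3, 15.7 and 15.4 CPM in control libraries. The groups did not overlap, but the log2 fold change of 0.38 (SE 0.13) missed the threshold (edgeR adjusted p = 0.0797). SLC25A38, a glycine carrier needed for haem synthesis and the member of this group with the highest level per kilobase of transcript (21.3 CPM per kb), had a log2 fold change of 0.25 (edgeR adjusted p = 0.156). SLC25A18, a second glutamate carrier, was close to the detection floor, with 0.620, 0.677 and 0.858 CPM in SAM libraries and 0.536, 0.500 and 0.392 CPM in control libraries, and its log2 fold change of 0.59 had an SE of 0.32 (edgeR adjusted p = 0.263).

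The aspartate/glutamate carriers are a pair, since SLC25A13 encodes citrin, which does the same exchange as aralar and is the usual form in liver. SLC25A13 had 58.4, 55.6 and 56.1 CPM in SAM libraries, against 60.3, 52.6 and 57.7 CPM in control libraries. Its groups overlapped and its log2 fold change was 0.00 (95% interval -0.20 to 0.20, edgeR adjusted p = 0.990). With levels scaled to coding length, SLC25A12 made up 42.2, 38.3 and 40.1% of the pair in SAM libraries, against 28.2, 32.2 and 30.1% in control libraries. The mean share was 40.2 ± 1.95% with SAM and 30.2 ± 2.01% in control (SD, n = 3 each), so citrin remained the larger part in every library. Scaled to transcript length, the means were 35.0% with SAM and 25.75% in control. These shares are a description with no test of their own.

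The nucleotide and phosphate carriers include the most abundant transcripts of the family. Of 9 members 7 were tested, 3 were positive, 1 was called, and the median log2 fold change was -0.01. Of all tested genes, 49.1% were positive and 5.19% were called higher. SLC25A5, or ANT2, the ADP/ATP carrier typical of dividing cells, had the highest level per kilobase of transcript of all members, 627 CPM per kb over the 6 libraries, against a median of 10.01 over the tested members and 7.16 over all tested genes. Its level was 844, 809 and 989 CPM in SAM libraries, against 757, 773 and 748 CPM in control libraries. SAM libraries were above control libraries, but the log2 fold change of 0.21 (SE 0.10) did not pass the test (edgeR adjusted p = 0.173).

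SLC25A6, or ANT3, which is expressed in most tissues, had 226, 240 and 294 CPM in SAM libraries, against 254, 263 and 259 CPM in control libraries. Its log2 fold change was -0.03 (edgeR adjusted p = 0.878), and SAM 3 alone was above the control range. SLC25A3, which brings phosphate into the matrix for ATP synthesis, had 548, 575 and 735 CPM in SAM libraries, against 619, 618 and 632 CPM in control libraries. It showed the same pattern, with SAM 1 and SAM 2 below and SAM 3 above all control libraries, and a log2 fold change of -0.01 (edgeR adjusted p = 0.975). The sign of both values turned without SAM 1, without SAM 2 and without control 1 and SAM 2. For SLC25A3 it also turned with no filter on low counts and with the length and GC trend removed.

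Within the ADP/ATP carriers SLC25A4 was the smallest part. Scaled to coding length, it made up 5.72, 4.54 and 4.53% of the 3 genes together in SAM libraries, against 3.20, 3.53 and 3.20% in control libraries. SLC25A5 made up 73.9 ± 0.426% with SAM and 72.1 ± 0.324% in control, and SLC25A6 made up 21.2 ± 1.11% with SAM and 24.6 ± 0.309% in control (SD, n = 3 each). For each of the 3 genes the SAM and control shares did not overlap, and SLC25A5 was the main isoform in all 6 libraries. The 3 shares add up to the whole, so they do not vary separately, and the split of reads among these genes is uncertain. Over all tested genes, 36.7% had levels without overlap in either direction, a measure of levels and not of shares. Among the ATP-Mg/phosphate carriers SLC25A23 made up 63.2 ± 4.43% with SAM and 56.6 ± 0.796% in control, and SLC25A24 made up 28.3 ± 4.20% with SAM and 34.5 ± 0.940% in control (SD, n = 3 each). These shares were not tested, and neither SLC25A23 (log2 fold change 0.19) nor SLC25A24 passed the test as a gene.

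**Figure D4:**
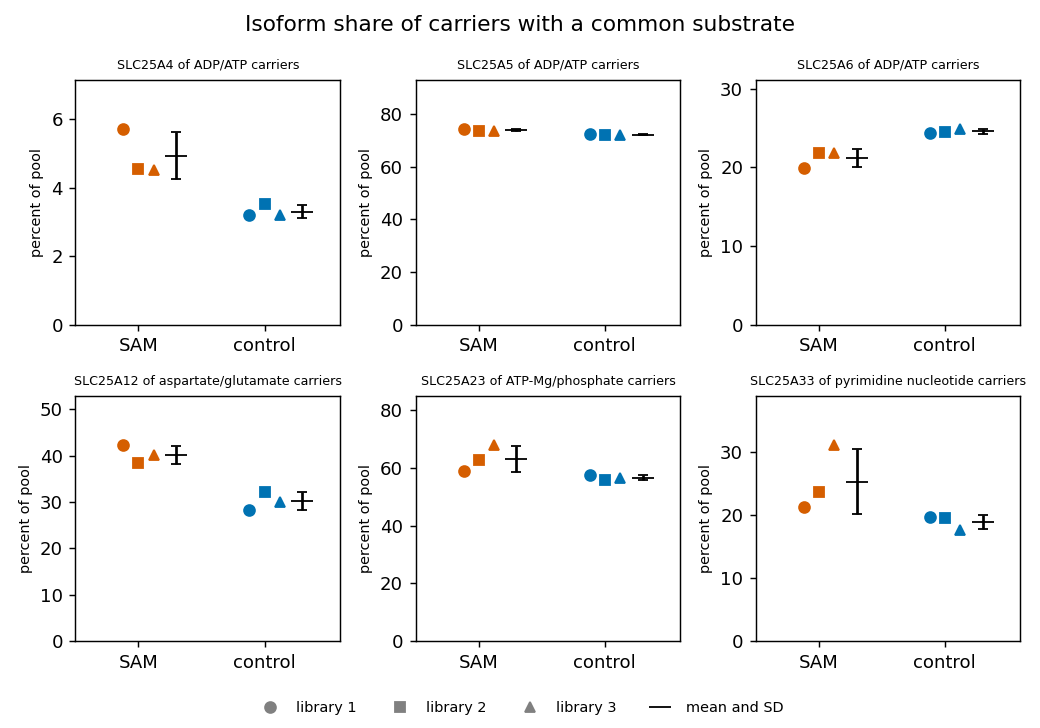
Share of single carriers in the summed level of carriers with a common substrate, in percent, from CPM per kilobase of coding sequence (points, by library number, SAM left and control right; horizontal line and bar, mean and SD, n = 3). SLC25A12 makes up 38.3 to 42.2% of the aspartate/glutamate carriers in SAM libraries and 28.2 to 32.2% in control libraries, and SLC25A5 makes up at least 71.9% of the ADP/ATP carriers in all libraries.

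Carriers of cofactors and pyrimidine nucleotides held 2 calls, SLC25A17 among them. Of 10 members 9 were tested, 7 were positive, and the median log2 fold change was 0.13. Of all tested genes, 49.1% were positive and 5.19% were called higher. SLC25A33, which carries pyrimidine nucleotides into mitochondria, had 17.8, 17.3 and 16.6 CPM in SAM libraries, against 13.9, 14.1 and 12.6 CPM in control libraries. The groups were apart, but the log2 fold change of 0.35 (SE 0.11) missed the threshold (edgeR adjusted p = 0.0659). SLC25A33 made up 25.3 ± 5.13% of the pyrimidine nucleotide carriers with SAM and 18.96 ± 1.1% in control (SD, n = 3 each, coding length). Scaled to transcript length, the means were 33.9% with SAM and 26.25% in control. The rest was SLC25A36, whose level in SAM 3 (35.6 CPM) was below that of every other library. SLC25A32, the folate carrier and the member of this group with the highest level per kilobase of transcript (23.2 CPM per kb), had 80.3, 70.5 and 56.3 CPM in SAM libraries, against 65.0, 68.1 and 62.4 CPM in control libraries. Its groups overlapped and the log2 fold change was 0.08 (edgeR adjusted p = 0.683), with the sign turned without SAM 1. GENCODE release 44 places a protein-coding gene model on the same strand over 16532 bases, nearly the whole span of SLC25A32, and reads of the model and the gene cannot be told apart there.

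The carboxylate and acylcarnitine carriers link the citric acid cycle and fatty acid oxidation to the cytosol. Of 6 rows 5 were tested and none was called, although 3 were higher at an unadjusted p under 0.05, which held for 15.4% of all tested genes, and the median log2 fold change was 0.29. SLC25A20, which brings fatty acids into the matrix as acylcarnitines, had 24.9, 19.5 and 22.2 CPM in SAM libraries, against 17.1, 17.0 and 17.7 CPM in control libraries, without overlap (log2 fold change 0.37, SE 0.11, edgeR adjusted p = 0.0663). SLC25A10, the dicarboxylate carrier that exchanges malate or succinate for phosphate, had 30.3, 24.9 and 34.9 CPM in SAM libraries, against 21.5, 25.1 and 22.6 CPM in control libraries, and SAM 2 lay within the control range (log2 fold change 0.38, SE 0.13, edgeR adjusted p = 0.0863). The readthrough model with MRPL12 overlaps SLC25A10 on its own strand over 8304 bases, which makes this count uncertain. SLC25A11, the oxoglutarate carrier and partner of the aspartate/glutamate carriers in the malate-aspartate shuttle, had the highest level per kilobase of transcript in this group (72.6 CPM per kb). It had 135, 118 and 153 CPM in SAM libraries, against 108, 118 and 107 CPM in control libraries, where SAM 2 and control 2 were almost equal (log2 fold change 0.29, SE 0.11, edgeR adjusted p = 0.122).

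Iron and glutathione carriers had no call among 4 tested members, with a median log2 fold change of 0.15. SLC25A39, which brings glutathione into the matrix, had the second highest level per kilobase of transcript in the family (389 CPM per kb). Its level was 595, 594 and 792 CPM in SAM libraries, against 547, 583 and 577 CPM in control libraries. The groups did not overlap, SAM 3 stood far above the other SAM libraries, and the log2 fold change was 0.21 (SE 0.12, edgeR adjusted p = 0.260). Its relative SLC25A40 made up 2.76 ± 0.840% of these carriers with SAM and 3.28 ± 0.184% in control (SD, n = 3 each, coding length). Scaled to transcript length, the means were 1.03% with SAM and 1.23% in control. The shares of SLC25A37 and SLC25A28, the mitoferrins that supply iron for haem and iron-sulphur clusters, overlapped between the groups.

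Uncoupling protein relatives had no call among 3 tested members, and the median log2 fold change was -0.02. The most abundant of them per kilobase of transcript, SLC25A14, had 11.95, 10.66 and 13.2 CPM in SAM libraries, against 12.1, 14.4 and 14.4 CPM in control libraries (log2 fold change -0.20, edgeR adjusted p = 0.330). The groups overlapped. Of 7 members with no settled substrate 4 were tested and none was called. SLC25A35 had 5.96, 7.27 and 6.998 CPM in SAM libraries, against 4.08, 4.81 and 4.95 CPM in control libraries, which did not overlap (log2 fold change 0.52, SE 0.16, edgeR adjusted p = 0.0615). Its span shares 1439 bases with RANGRF on the opposite strand. SLC25A43, the most abundant of these members per kilobase of transcript, had a log2 fold change of 0.16 (edgeR adjusted p = 0.232).

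In all, 13 of the 40 tested members were higher at an unadjusted p under 0.05, beside 15.4% of all tested genes, and 8 of them were not called: SLC25A35, SLC25A33, SLC25A20, SLC25A15, SLC25A10, SLC25A11, SLC25A38 and SLC25A28. A further 12 tested members were SLC25A1, SLC25A16, SLC25A21, SLC25A25, SLC25A27, SLC25A29, SLC25A30, SLC25A42, SLC25A44, SLC25A45, SLC25A46 and SLC25A51. Their log2 fold changes were between -0.17 (SLC25A45) and 0.18 (SLC25A51), and the smallest edgeR adjusted p among them was 0.328 (SLC25A51, which lies wholly within a readthrough gene on its own strand, so its count is uncertain). The 8 rows that were not tested held at most 45 counts over the 6 libraries. They were SLC25A41 (45 counts), SLC25A34 (20), SLC25A48 (6), SLC25A31 and SLC25A47 (2 each), SLC25A2 and SLC25A52 (1 each), and the second identifier of SLC25A10, a readthrough model with MRPL12 that had 0 counts. A count of 3 in a library corresponds to between 0.104 CPM in SAM 1 and 0.320 CPM in control 1. SLC25A31 encodes the ADP/ATP carrier of the germ line and SLC25A47 a carrier of the liver.

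Promoter windows of 250 bases before the RefSeq gene start were at hand for 34 of the 40 tested members and for 4 of the 5 called ones. They were searched on both strands for the core CCGGAAG bound by ETS-family factors, a group that includes regulators of many nuclear genes for mitochondrial proteins. The core was found in 8 of these 34 windows (23.5%), in 15.4% of the windows of all tested genes and in 8.78% of all windows. Of the called members SLC25A4 and SLC25A17 held it, and their windows are shown because they are the called members with a match (core in capitals, GRCh38.p14, SLC25A4 at chr4:185143016-185143265 on the plus strand and SLC25A17 at chr22:40819347-40819596 on the minus strand):
SLC25A4: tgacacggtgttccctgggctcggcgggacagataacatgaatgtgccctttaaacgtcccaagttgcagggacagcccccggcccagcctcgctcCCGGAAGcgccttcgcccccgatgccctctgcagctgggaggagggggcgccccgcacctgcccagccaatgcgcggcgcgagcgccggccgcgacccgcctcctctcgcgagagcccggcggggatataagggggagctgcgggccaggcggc
SLC25A17: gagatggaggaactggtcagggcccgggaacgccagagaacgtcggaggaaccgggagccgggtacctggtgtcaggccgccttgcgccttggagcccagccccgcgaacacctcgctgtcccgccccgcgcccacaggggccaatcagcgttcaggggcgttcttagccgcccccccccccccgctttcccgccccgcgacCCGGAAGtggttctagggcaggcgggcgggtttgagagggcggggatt
The windows of SLC25A12 and SLC25A22 did not hold these letters. The CCAAT box (CCAAT) was also in the windows of SLC25A4 and SLC25A17, in 44.1% of the tested members' windows and in 35.0% of those of all tested genes. The E-box CACGTG was in 6 of the 34 windows (17.6%), in none of the called members and in 8.7% of the windows of all tested genes, and the palindromic motif of NRF1 and the letters TGATGCAA of an ATF4 composite site were in 0 of the 34, beside 1.95% and 0.412% of the windows of all tested genes. A match in these windows is a description of the sequence and not a site.

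Carriers reach the inner membrane through a dedicated import route, with the outer membrane pore TOMM40, small chaperones of the intermembrane space and the TIMM22 complex. Of 13 tested genes of this route 2 were called higher and 0 lower (5.19% and 5.24% of all tested genes), with a median log2 fold change of 0.31. TOMM40 had 168, 139 and 163 CPM in SAM libraries, against 102, 107 and 105 CPM in control libraries (log2 fold change 0.58, SE 0.10, edgeR adjusted p = 0.0109). TIMM8A, a small chaperone that escorts precursors between the membranes, had 31.9, 23.8 and 28.5 CPM in SAM libraries, against 21.0, 21.0 and 20.7 CPM in control libraries (log2 fold change 0.43, SE 0.12, edgeR adjusted p = 0.0460). Both genes, which were named because they were called, were higher in every SAM library than in any control library. This held for 17.9% of all tested genes.

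Of 15 tested mitochondrial channels and carriers with symbols outside the rule, 3 were called higher and 0 lower (5.19% and 5.24% of all tested genes). Their median log2 fold change was 0.29, and the lowest was that of UCP2 (-0.42), a family member under another symbol. SFXN4, a sideroflexin needed for iron-sulphur cluster and complex I formation, had 39.8, 32.9 and 41.0 CPM in SAM libraries, against 25.1, 27.4 and 24.9 CPM in control libraries (log2 fold change 0.56, edgeR adjusted p = 0.0152). VDAC1, the main pore of the outer membrane, had a log2 fold change of 0.38 (edgeR adjusted p = 0.0363), and MPC1, a subunit of the mitochondrial pyruvate carrier, had 0.46 (edgeR adjusted p = 0.0420). DESeq2 called 7 of these 15 genes higher and 3 of the 13 import genes, beside 7.47% of all genes.

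Of 21 tested methyltransferases and other SAM-using enzymes of the matrix, which depend on the SAM that SLC25A26 brings in, edgeR called 0 in either direction. At an unadjusted p under 0.05, 5 were higher and 0 lower, DESeq2 called 1 higher, and limma voom called 0. Their median log2 fold change was 0.12, and 18 were positive. As further nuclear-encoded mitochondrial genes, 75 mitochondrial ribosomal proteins had a median log2 fold change of 0.27, with 6 called higher (8%) and 0 lower, led by MRPL41 (0.47, edgeR adjusted p = 0.0243), MRPS5 (0.38, edgeR adjusted p = 0.0348) and MRPS6 (0.42, edgeR adjusted p = 0.0391). DESeq2 called 18 of these 75 higher, and 37 were higher at an unadjusted p under 0.05. Over all tested genes, edgeR called 5.19% higher and 5.24% lower, and DESeq2 called 7.47% higher. At an unadjusted p under 0.05, 15.4% of all tested genes were higher and 15.2% lower. The 37 tested complex I subunits had a median of 0.31, with 1 called higher, NDUFB3 (0.68, edgeR adjusted p = 0.0333), and 0 lower. DESeq2 called 6 of these 37 higher, and 20 were higher at an unadjusted p under 0.05. The median of the SLC25 members, 0.13, was below those of both these lists, a difference that was not tested.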

How the data were processed

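PC-3 RNA was sequenced from 3 SAM and 3 control libraries. According to the labels, TruSeq libraries were read on a HiSeq2000. Tools named in the submitters' notes include the aligner STAR 2.4, the counter HTSeq 0.6.1 and DESeq2 1.8, and the notes list hg19 and mm10 as builds with no role given. The study's text gives another SAM dose, RNA kit and sequencer, and the labels were followed. It also gives the control treatment as a vehicle of sulfuric acid and ethanol in PBS. If the controls here had PBS without that vehicle, effects of SAM and of the vehicle cannot be told apart. The authors deposited raw counts per Ensembl gene, and a normalised signal, which is the count divided by a size factor per library. The deposited table also lists a transcript length per gene, which was not used for levels. Of 51488 identifiers shared with GENCODE release 44, 99.9% overlap that gene on GRCh38, so coordinates are given as GRCh38.

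The counts were tested with edgeR 4.0.16 (glmQLFit, glmQLFTest, R 4.3.3) on all genes that filterByExpr kept (15312, with 99.9% of counts), with TMM scaling and treatment alone in the design. The two-sided p-values were adjusted by Benjamini-Hochberg over all tested genes, with 0.05 as the threshold, and the biological coefficient of variation was 13.5%. CPM used TMM-scaled library sizes. CPM per kb used GENCODE canonical transcripts, and isoform shares used their coding lengths unless transcript length is named. The size of a share depended on the length used, and the same shares were apart or overlapped with either length. For carriers taken as a pair this follows from the calculation, since the length does not change the order of the libraries. The fit was tested on simulated counts. A floor of 3 counts covers counting error only.

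The members, substrate groups and lists were chosen with earlier results of these data known. Named genes were all called members, SLC25A26, the 4 highest levels per kb, the 6 uncalled members with the smallest p, the highest level per kb in each substrate group, and up to 3 called genes per related list. SLC25A13, SLC25A18, SLC25A23, SLC25A24, SLC25A28, SLC25A36, SLC25A37, SLC25A40 and UCP2 were added after their values were seen. The rule also named 1 further called member, not reported here. Alternatives were other scalings, filters and tools (DESeq2 1.42.0, limma 3.58.1), each library left out, SAM 2 and control 1 left out together, a replicate block, a stricter threshold and removal of a per-library trend on length and GC content.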

Additional observations from a re-analysis of the deposited data

How the results depend on the processing

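The members called higher numbered 4 or 5 under 12 of the 13 alternatives that kept all libraries or left out SAM 2 and control 1 together, and 10 with the length and GC trend removed. Leaving out 1 library gave 1 to 9, with the lowest value without control 3 and the highest without SAM 3, and no member was called lower under any alternative. SLC25A4 lost its call without control 3, SLC25A12 and SLC25A22 without control 1, 2 or 3, and SLC25A17 under 12 of 19 alternatives. Over all tested genes, the number called higher was 1402 with no filter on low counts, 446 without SAM 2 and control 1, 1800 with the trend removed, 126 at an adjusted p under 0.01 and 61 to 1661 with 1 library left out. The number called lower was 1341, 508, 1354, 127 and 78 to 1572 under the same settings. The log2 fold change turned for SLC25A6 without SAM 1 (0.0406), without SAM 2 (0.00658) and without SAM 2 and control 1 (0.00084), and with 1 library left out it was between -0.146 and 0.0406. It turned for SLC25A3 with no filter (0.00305), without SAM 1 (0.0677), without SAM 2 (0.0438), without SAM 2 and control 1 (0.0475) and with the trend removed (0.15), and with 1 library left out it was between -0.145 and 0.0677. For SLC25A32 it turned without SAM 1, the range with 1 library left out being -0.0459 to 0.218. None of these values passed the test, and the cause was not tested. For the 20 named members, 340 of the alternative values kept their direction and side of the threshold.

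Same-numbered SAM and control libraries had correlations of deviations of -0.261, -0.631 and 0.244. The deviations were taken from each group's mean, so the correlations depend on one another. They cannot decide whether the libraries were paired by number. The highest values were across numbers, 0.698 for SAM 2 with control 1 and 0.459 for SAM 3 with control 2. The other values across numbers were between -0.499 and 0.223. The main design had no term for such pairs. With the replicate number as a block, 4 members were called higher, SLC25A17 being lost, with 440 of all genes called higher and 588 lower.

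Depth limits the low members most, since the libraries differed 3.09-fold in total and SLC25A18 and the 8 untested rows lay near the floor.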
